A study of Homo sapiens with 21 samples.

Results

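The libraries compared here came from PGP knockout cells and wild type cells, both treated for 24 h with ironomycin. They were chosen by label alone and number 6 of the 21 libraries in the series, 3 of each genotype. The cells were MV4-11, an established human leukaemia line described in the labels as biphenotypic, with B-lymphoid and myelomonocytic features. Its KMT2A rearrangement is background knowledge of the line. The PGP knockout was made with CRISPR, and ironomycin is the small molecule that the labels also call AM5. The groups used for reference, with 3 libraries each, were wild type, PGP knockout and HK2 knockout cells given the solvent DMSO, and HK2 knockout cells given ironomycin for 24 h. The HK2 knockout was also made with CRISPR. The labels give no time for DMSO, and they name neither the edited sites nor whether the knockout cells are a clone. No control line that went through editing is named, so the effects of losing PGP and of making the knockout line cannot be told apart. Nothing in the labels states that the replicates were grown separately. The p-values therefore reflect the spread among these libraries alone, which may be technical.

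PGP, phosphoglycolate phosphatase, is a cytosolic enzyme of metabolite repair. It removes the phosphate from side products of glycolytic enzymes, among them phosphoglycolate, and from glycerol 3-phosphate. Some of these side products inhibit enzymes of glycolysis and of the pentose phosphate pathway when they build up. Ironomycin is a derivative of salinomycin that traps iron in lysosomes, and the title of the series places its action on mitochondrial iron and on death that requires BAX or BAK. The comparison asks whether cells without PGP held a different transcript profile while under the drug.

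RNA was read with a kit that counts the 3' ends of messenger RNAs, and levels are given as CPM, counts scaled to a common library size, with TMM factors for composition. Differences are log2 values, PGP knockout minus wild type, with a standard error (SE) from a fit in edgeR, and a call means a p below 0.05 after Benjamini-Hochberg adjustment across the 11610 genes that passed a filter on low counts. The 6 libraries held between 4290098 and 5029839 counts, where 3 counts stood for 0.583 to 0.697 CPM. The first principal component of all 21 libraries carried 43.4% of the variance and placed the 6 libraries together, between 25.9 and 29.9, away from the DMSO libraries. Mitochondrial messenger RNAs took 1.78% to 2.67% of the counts in wild type and 2.41% to 3.20% in the PGP knockout. Replicate 1 of the PGP knockout stood apart from replicates 2 and 3 in its interferon-stimulated genes, which are described with and without it.

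PGP itself (ENSG00000184207) was still counted in the knockout. Its level under ironomycin was 82.0, 81.3 and 72.9 CPM in wild type and 63.0, 63.0 and 53.2 CPM in the knockout, so that each knockout library lay below each wild type library. The difference was -0.40 ± 0.12 (SE, n = 3 per group), and its adjusted p in edgeR's quasi-likelihood test was 0.722, so it was not called. The HK2 knockout, in which PGP was not the target, held 86.6, 76.6 and 80.0 CPM. In DMSO the PGP level was 71.7, 71.0 and 83.6 CPM in the knockout and 89.4, 86.8 and 95.5 CPM in wild type, a difference of -0.26 ± 0.12 that was not called either. Counts at the 3' end do not show whether the transcript still encodes a working protein, since the edited site is not named. PDXP, the paralog of PGP that acts on pyridoxal phosphate, had between 0 and 1 count in every library of these groups and was not tested. HK2, hexokinase 2, stood at 36.4, 44.6 and 54.0 CPM in wild type and 33.3, 33.7 and 42.1 CPM in the PGP knockout, and the groups overlapped.

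Under ironomycin, 6 of 11610 genes differed between the PGP knockout and wild type, which is 0.0517% of those tested. CHI3L1, CADM1 and IGF1 were lower in the knockout, and PLAC8, FGL2 and ZNF85 were higher, 0.0258% in each direction. The median absolute difference over all tested genes was 0.12. The libraries of the groups did not overlap for 1105 genes (9.52%), and 472 genes (4.07%) had an unadjusted p under 0.05, of which 273 were higher (2.35%) and 199 lower (1.71%).

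The promoters of 4 called genes, those above 5 CPM other than CADM1, are printed to show the sequence before the start of the genes that the results turn on. Each stretch is the 250 bases before the annotated start, from RefSeq on GRCh38.p14, 5' to 3' on the gene's strand, which is the minus strand for all 4. The counts were made on another build, hg19, and no count was read by these coordinates. Capitals mark matches on either strand to any of 6 motifs. They were the TATA box with the letters TATAAA, the CCAAT box, the GC box with the letters GGGCGG, the PU.1 core with the letters GAGGAA, the AP-1 site with the letters TGANTCA, and the interferon response element, which is 2 copies of GAAA separated by 2 bases. None of the printed matches overlap. CHI3L1 lies on chromosome 1 (chr1:203186705-203186954), IGF1 on chromosome 12 (chr12:102481748-102481997), PLAC8 on chromosome 4 (chr4:83114730-83114979) and FGL2 on chromosome 7 (chr7:77199820-77200069).
CHI3L1: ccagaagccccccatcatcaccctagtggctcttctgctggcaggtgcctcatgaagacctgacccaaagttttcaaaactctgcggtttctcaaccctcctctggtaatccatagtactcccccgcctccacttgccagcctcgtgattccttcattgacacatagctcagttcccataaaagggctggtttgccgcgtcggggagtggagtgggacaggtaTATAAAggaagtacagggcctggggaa
IGF1: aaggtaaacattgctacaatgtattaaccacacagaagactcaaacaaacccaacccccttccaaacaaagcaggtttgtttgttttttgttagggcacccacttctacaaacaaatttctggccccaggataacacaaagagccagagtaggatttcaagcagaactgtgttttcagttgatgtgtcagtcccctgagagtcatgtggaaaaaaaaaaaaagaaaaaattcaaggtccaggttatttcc
PLAC8: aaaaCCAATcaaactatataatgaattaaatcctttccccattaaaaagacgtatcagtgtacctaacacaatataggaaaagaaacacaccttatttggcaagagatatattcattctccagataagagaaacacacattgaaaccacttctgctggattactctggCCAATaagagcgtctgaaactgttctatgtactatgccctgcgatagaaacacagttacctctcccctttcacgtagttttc
FGL2: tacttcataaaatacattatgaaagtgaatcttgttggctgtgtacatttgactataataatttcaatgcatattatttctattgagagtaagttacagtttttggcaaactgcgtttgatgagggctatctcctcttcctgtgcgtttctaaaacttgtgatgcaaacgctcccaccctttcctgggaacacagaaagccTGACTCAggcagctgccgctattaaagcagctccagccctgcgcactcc
The 4 stretches share none of the 6 motifs. CHI3L1 held the TATA box letters close to the start, as did 10.7% of 35116 RefSeq promoters over the same 250 bases at any position. PLAC8 held 2 copies of CCAAT, found in 32.0% of promoters, and FGL2 held TGANTCA, found in 6.57%. IGF1 held none of them. The GC content was 54.0% for CHI3L1, 39.6% for IGF1, 36.8% for PLAC8 and 42.0% for FGL2, against a median of 58% over all promoters. The GC box, the PU.1 core and the interferon response element were each absent from the 4 stretches and present in 42.6%, 23.6% and 3.02% of promoters. A match or its absence is a description of these letters only.

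CHI3L1 (ENSG00000133048), a secreted chitinase-like glycoprotein of macrophages and neutrophils, gave the smallest adjusted p. Its level was 702, 881 and 1126 CPM in wild type and 243, 291 and 417 CPM in the PGP knockout. The highest knockout library lay well below the lowest wild type library. CHI3L1 fell by 1.51 ± 0.22 on the log2 scale (95% interval -1.97 to -1.05), with an adjusted p of 0.00723 in edgeR. In DMSO the levels were 434, 317 and 545 CPM in wild type and 229, 281 and 291 CPM in the knockout. Wild type cells raised CHI3L1 under ironomycin by 1.06 ± 0.22 (adjusted p = 0.000671 in edgeR). The knockout means were 267 ± 33.3 CPM in DMSO and 317 ± 90.2 CPM under the drug (SD, n = 3). Whether the change differed between the genotypes was tested below, and CHI3L1 was not called there.

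CADM1 (ENSG00000182985), a cell adhesion molecule of the immunoglobulin family, was at 111, 117 and 111 CPM in wild type and at 53.8, 65.5 and 48.7 CPM in the PGP knockout. The wild type libraries were close together and all above the knockout. CADM1 fell by 1.01 ± 0.16, with an adjusted p of 0.0101 in edgeR. This gene rose strongly under ironomycin in wild type, by 2.57 ± 0.18 (adjusted p = 6.47e-10 in edgeR), from a mean of 19.0 CPM in DMSO. In DMSO the knockout held 15.8, 16.1 and 11.2 CPM against 25.9, 14.0 and 17.1 CPM in wild type, and the groups overlapped.

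IGF1 (ENSG00000017427), which encodes a growth factor that signals through a receptor tyrosine kinase, was at 22.4, 27.0 and 29.2 CPM in wild type and 10.9, 12.1 and 14.4 CPM in the PGP knockout. The groups did not overlap. IGF1 fell by 1.07 ± 0.19, with an adjusted p of 0.0236 in edgeR. In DMSO the levels were 21.9, 23.4 and 23.6 CPM in wild type and 10.4, 17.6 and 17.8 CPM in the knockout, again without overlap, with a difference of -0.57 ± 0.19 that was not called.

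PLAC8 (ENSG00000145287), a small cysteine-rich protein found in myeloid cells, was at 60.8, 45.0 and 58.9 CPM in wild type and 115, 94.4 and 90.8 CPM in the PGP knockout. All knockout libraries were above all wild type libraries. PLAC8 rose by 0.86 ± 0.14, with an adjusted p of 0.0101 in edgeR. Ironomycin lowered PLAC8 in wild type by 1.40 ± 0.14 on the log2 scale, and the DMSO levels were 143, 164 and 129 CPM in wild type and 207, 164 and 168 CPM in the knockout.

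FGL2 (ENSG00000127951), a fibrinogen-like protein secreted by or displayed on immune cells, was at 9.86, 6.74 and 10.1 CPM in wild type and 38.3, 21.4 and 17.7 CPM in the PGP knockout. The knockout libraries were all higher, and replicate 1 was the highest. FGL2 rose by 1.53 ± 0.27, with an adjusted p of 0.0236 in edgeR. The DMSO levels showed the same order, with 11.9, 6.68 and 9.12 CPM in wild type and 24.1, 16.8 and 15.6 CPM in the knockout.

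ZNF85 (ENSG00000105750), a zinc finger protein of the KRAB class, was called at a low level. It had 2 counts in each wild type library and 14, 12 and 13 counts in the knockout libraries. These correspond to 0.411, 0.397 and 0.389 CPM against 2.93, 2.79 and 2.53 CPM. ZNF85 rose by 2.71 ± 0.48, with an adjusted p of 0.0236 in edgeR. DESeq2 did not call it (adjusted p = 0.294). ZNF85 belongs to a family of similar genes whose reads can be shared, so its counts are uncertain.

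**Figure D1:**
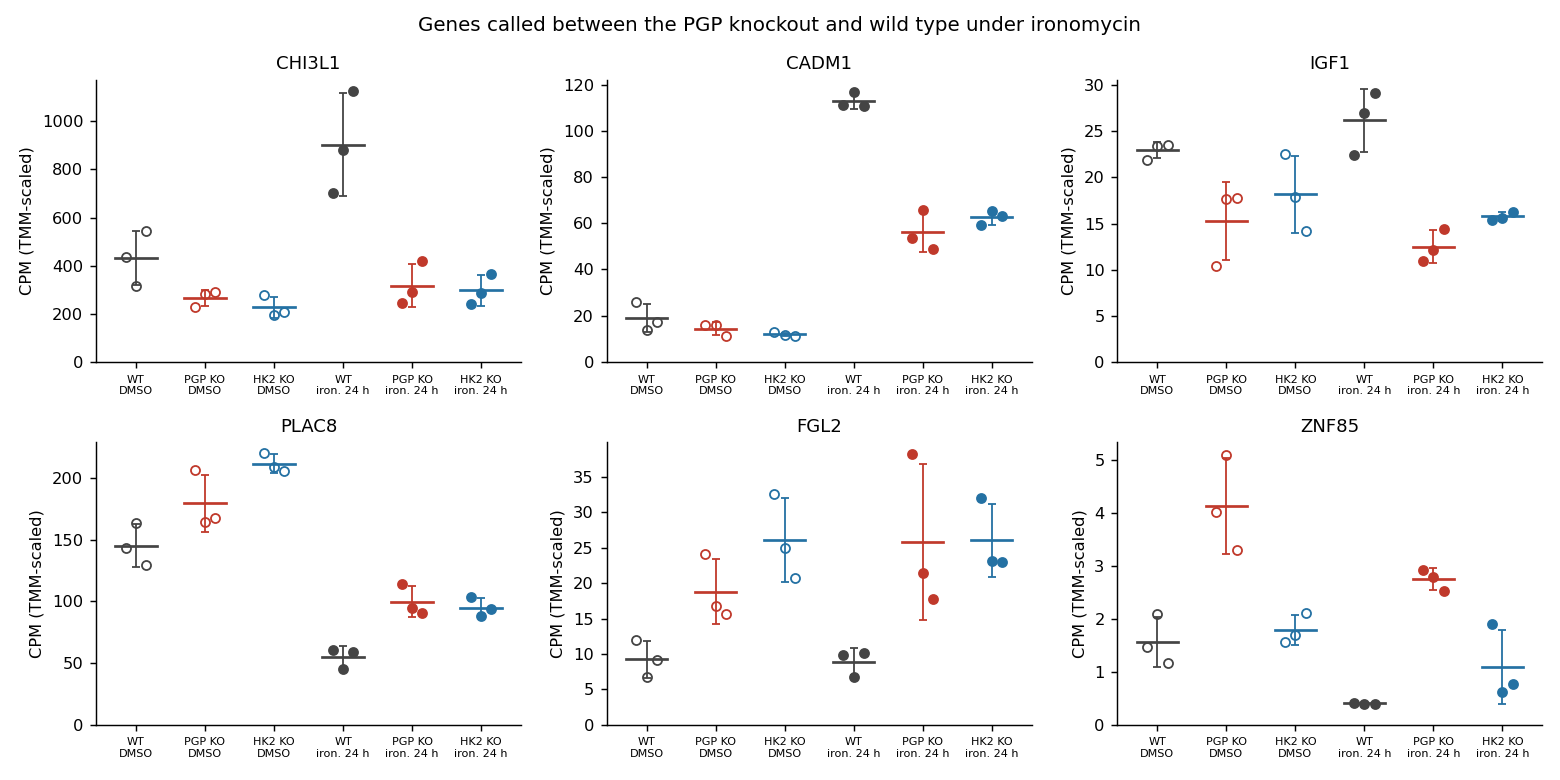
Levels of the 6 called genes in each library, as CPM on a linear axis that starts at 0, with open points for DMSO and filled points for 24 h of ironomycin (labelled iron.). Lines are group means and bars are SD of 3 libraries. Under ironomycin the wild type libraries lie apart from the PGP knockout libraries for every gene, and for CHI3L1, CADM1, PLAC8 and FGL2 the HK2 knockout lies with the PGP knockout.

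**Figure D2:**
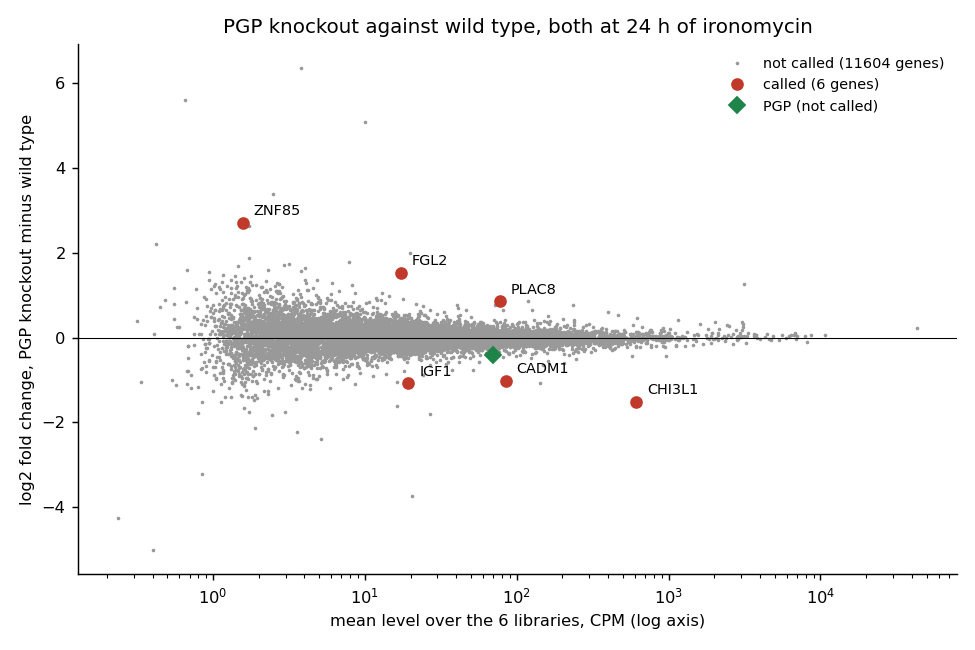
Log2 difference under ironomycin, PGP knockout minus wild type, against the mean level in CPM on a log axis, for 11610 genes. Red points are the 6 called genes and the green diamond is PGP at -0.40. Of 158 genes beyond a 2-fold difference, 136 had a mean below 5 CPM.

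The number of calls rested on few libraries. With 1 library of the compared groups left out in turn, between 0 and 4 genes were called. None was called without replicate 3 of wild type or without replicate 1 of the PGP knockout, and 1, CHI3L1, without replicate 2 of wild type. CHI3L1 was called in 4 of these 6 fits, PLAC8 in 3, CADM1 and FGL2 in 2 each, IGF1 in 1 and ZNF85 in none, and the direction of each was the same in all 6. The log2 difference stayed between -1.76 and -1.32 for CHI3L1, between -1.14 and -0.92 for CADM1, between -1.19 and -0.98 for IGF1, between 0.73 and 0.93 for PLAC8, between 1.12 and 1.75 for FGL2 and between 2.65 and 2.77 for ZNF85. Without the filter on low counts 48 genes were called. When only the treated PGP knockout and wild type libraries entered the fit, 3 were called.

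A few grey points far from 0 belong to genes copied from abundant transcripts, where the counting of shared reads is uncertain. RPSAP15 had a difference of -3.74 ± 1.17, GAPDHP1 of 5.09 ± 1.68 and PTMAP8 of 6.35 ± 2.42, and none was called. These 3 were chosen after their values were seen.

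The rule for named genes filled the places beyond the called genes with those of smallest p, above 5 CPM and without overlap between the groups. None of the following genes was called, and the adjusted p in edgeR ranged from 0.143 upward. On the higher side were CLU, a secreted chaperone, and MCOLN2, a cation channel of endosomes and lysosomes. CLU stood at 11.5, 13.5 and 9.74 CPM in the knockout and 6.37, 4.56 and 3.69 CPM in wild type, a difference of 1.24 ± 0.27. MCOLN2 stood at 10.5, 9.06 and 6.43 CPM in the knockout and 3.08, 2.78 and 4.67 CPM in wild type, a difference of 1.29 ± 0.28. Both genes also had higher DMSO levels in the knockout, by 1.17 ± 0.29 and 0.83 ± 0.23. MICAL2, an oxidase of actin, differed by 0.88 ± 0.21, with 15.7, 17.7 and 16.4 CPM against 8.83, 9.52 and 8.55 CPM in wild type. TGM5, a transglutaminase, differed by 0.77 ± 0.17, with 54.2, 53 and 46 CPM in the knockout and 28.1, 33.5 and 28.4 CPM in wild type. IGFBP7, a secreted binding protein of the insulin-like growth factor system, differed by 0.82 ± 0.22. CTSG, a serine protease of myeloid granules, differed by 0.43 ± 0.12, with 206, 241 and 246 CPM against 182, 179 and 152 CPM in wild type. DENND1B, an exchange factor for a Rab protein, differed by 0.73 ± 0.19, ATP8B3, a lipid flippase, by 0.57 ± 0.14 and NUDT8, a nudix hydrolase, by 0.59 ± 0.16. RPL12P47, with a difference of 0.66 ± 0.18, is a ribosomal protein pseudogene whose reads may belong to its parent gene.

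On the lower side were EMP2, a membrane protein with 4 passes, and CCL2, a chemokine that attracts monocytes. EMP2 was at 9.63, 9.53 and 12.7 CPM in the knockout and 17.9, 25.4 and 22.7 CPM in wild type, a difference of -1.05 ± 0.23. CCL2 was at 21.2, 5.58 and 8.96 CPM in the knockout and 54.4, 33.1 and 37.9 CPM in wild type, a difference of -1.80 ± 0.43. Replicate 1 was the highest CCL2 library in both genotypes. CCL2 was also low in the DMSO libraries of the knockout, which held 4, 4 and 1 counts against 25, 14 and 59 in wild type. MEF2C, a transcription factor that KMT2A leukaemias express, was at 211, 190 and 170 CPM in the knockout and 260, 240 and 256 CPM in wild type, a difference of -0.40 ± 0.11. SLC2A5, the fructose transporter GLUT5, differed by -0.58 ± 0.17, with 38.5, 28.6 and 32.7 CPM in the knockout and 46.8, 55.7 and 47.0 CPM in wild type. ALOX5AP, needed for leukotriene synthesis, stood at 477, 430 and 543 CPM in the knockout and 632, 698 and 645 CPM in wild type. PRDX1, a peroxiredoxin that reduces hydrogen peroxide, differed by -0.31 ± 0.09. ADGRG5, an adhesion receptor coupled to G proteins, differed by -0.58 ± 0.15, ZNRD2 by -0.59 ± 0.16 and ARMC9 by -0.92 ± 0.26.

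**Figure D3:**
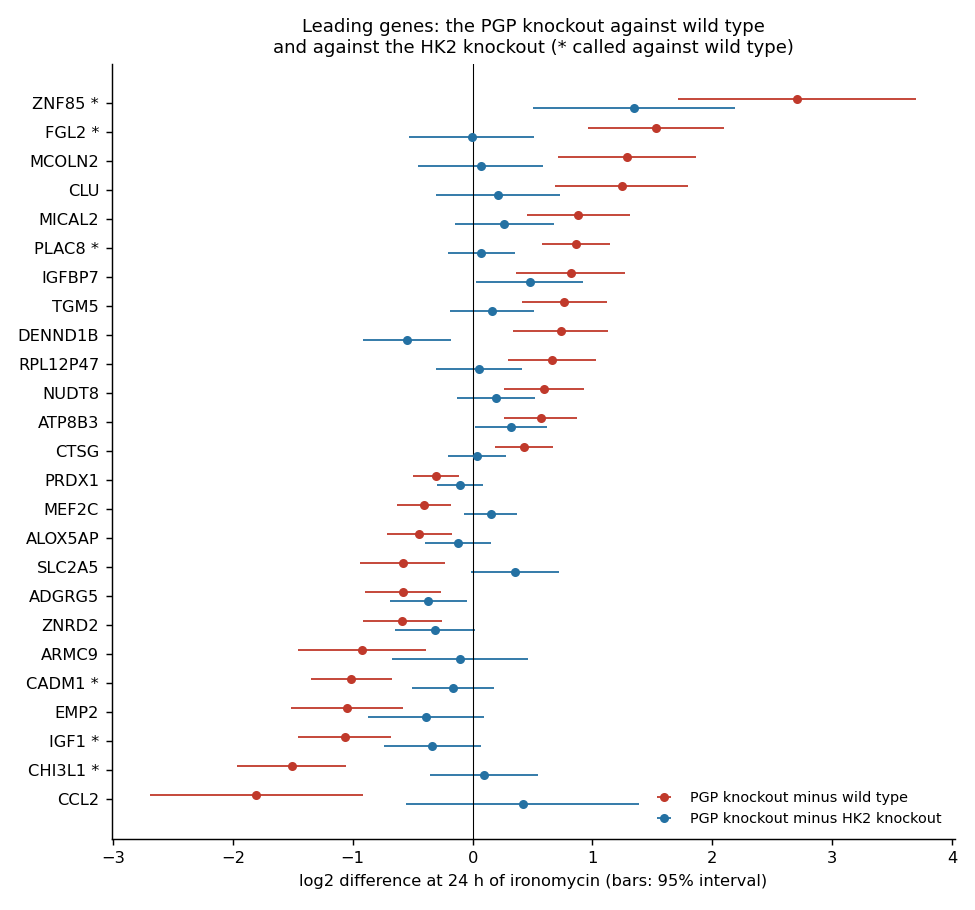
Log2 differences of the leading genes under ironomycin with 95% intervals, PGP knockout minus wild type in red and PGP knockout minus HK2 knockout in blue. Genes with an asterisk were called against wild type. The red intervals exclude 0 by the choice of these genes, and many blue intervals include it, such as that of CHI3L1 at 0.09.

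The drug response of wild type cells gives a scale for these differences. Ironomycin changed 3465 genes in wild type against DMSO (29.8% of those tested), with a median absolute change of 0.76. Over these same genes the median absolute genotype difference under the drug was 0.11, and 4 of them were called in that comparison. For 3049 of the 3465 (88.0%) the 95% interval of the genotype difference lay within a 2-fold change in either direction. Over all tested genes this held for 9378 (80.8%), and it depended on the level: 25.7% of genes below 5 CPM and 98.7% of genes between 20 and 100 CPM. The median distance from the estimate to the bound was 0.90 below 5 CPM and 0.26 above 100 CPM, so differences in low genes were not well resolved at this depth. As a description of whole profiles, the SD over genes of the log2 difference between 1 library of wild type and 1 of the PGP knockout had a median of 0.35 over 9 pairs, against 0.33 within wild type and 0.38 within the PGP knockout.

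Across 46 gene lists with tested members, no list had a called member. The median difference lay within 0.1 of 0 for 39 lists, where the median over all genes was 0.00. The lists and the members were drawn up with earlier results of these data known, and the counts are given as descriptions beside the background of 2.35% higher and 1.71% lower at an unadjusted p under 0.05.

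**Figure D4:**
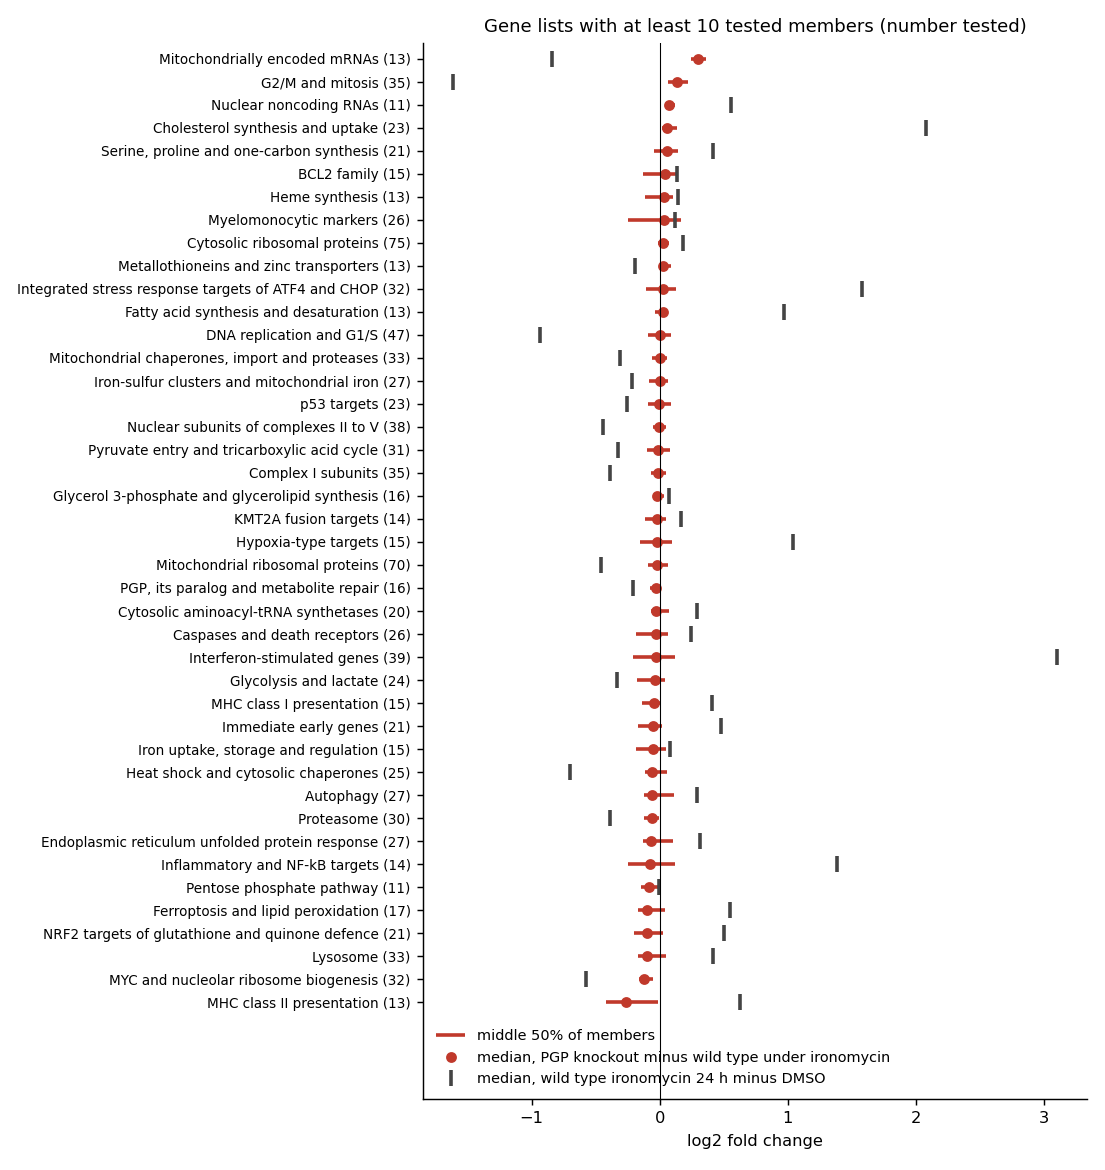
Median log2 difference of each gene list under ironomycin, PGP knockout minus wild type (red point) with the middle 50% of its members (red line), and the median change of the same list under ironomycin in wild type (grey tick). Numbers in brackets are tested members. The red medians cluster near 0 while the grey ticks range from -1.61 for mitosis genes to 3.11 for interferon-stimulated genes.

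For the programmes that ironomycin moved most in wild type, the genotype difference was small beside the drug change. Targets of the integrated stress response, the programme of ATF4 and CHOP, had a median change of 1.58 in wild type under the drug and a genotype difference of 0.02, with 17 of 32 members higher and none at an unadjusted p under 0.05. TRIB3, a target of that response, was at 232, 245 and 313 CPM in the knockout and 176, 245 and 227 CPM in wild type. DDIT3, which encodes CHOP, was at 22, 23.9 and 27.1 CPM in the knockout and 22.6, 22.6 and 23.7 CPM in wild type. Cholesterol synthesis and uptake genes had a wild type change of 2.08 and a genotype difference of 0.06. That difference was -0.033 without replicate 1 of wild type and 0.15 without replicate 2 of wild type. MSMO1, a sterol oxidase, had 479, 445 and 582 counts in the knockout and 387, 611 and 537 counts in wild type. PGD, of the pentose phosphate pathway, was at 271, 308 and 321 CPM in the knockout and 311, 307 and 283 CPM in wild type. The groups overlapped for each of these genes.

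Interferon-stimulated genes, which cells raise when they sense foreign nucleic acid or interferon, had a median change of 3.11 in wild type under ironomycin. Their median genotype difference was -0.03, with 18 of 39 tested members higher and 21 lower. The libraries behind this median were far apart. Relative to the wild type mean under ironomycin, the list's median level, on log2(CPM + 0.5), was 0.83 in replicate 1 of the PGP knockout and -0.84 and -0.68 in replicates 2 and 3. The wild type libraries were at 0.46, -0.30 and -0.20. Replicate 1 was thus the highest library in both genotypes. IFIT1, chosen as an example after its values were seen, showed 27.2, 6.74 and 7.21 CPM in the knockout and 14.2, 14.9 and 11.3 CPM in wild type. It thus followed the list in the knockout, while its highest wild type library was replicate 2. Without replicate 1 of the PGP knockout the median genotype difference was -0.73, with 24 of 39 members lower at an unadjusted p under 0.05 and 1 higher. In that fit 579 of 11833 genes tested had an unadjusted p under 0.05 in either direction, and none was called. Without replicate 1 of wild type the median was 0.25, with none lower and 1 higher at that threshold. The direction for this group therefore changed with the library left out. KLHDC7B, the list member with the smallest p, did not follow that split: it was at 23.0, 22.1 and 24.9 CPM in the knockout and 14.0, 12.7 and 10.7 CPM in wild type (difference 0.91 ± 0.24, not called). STAT2, a transcription factor of the interferon pathway, was at 70.4, 67.2 and 70.7 CPM in the knockout and 64.9, 67.6 and 59.7 CPM in wild type.

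**Figure D5:**
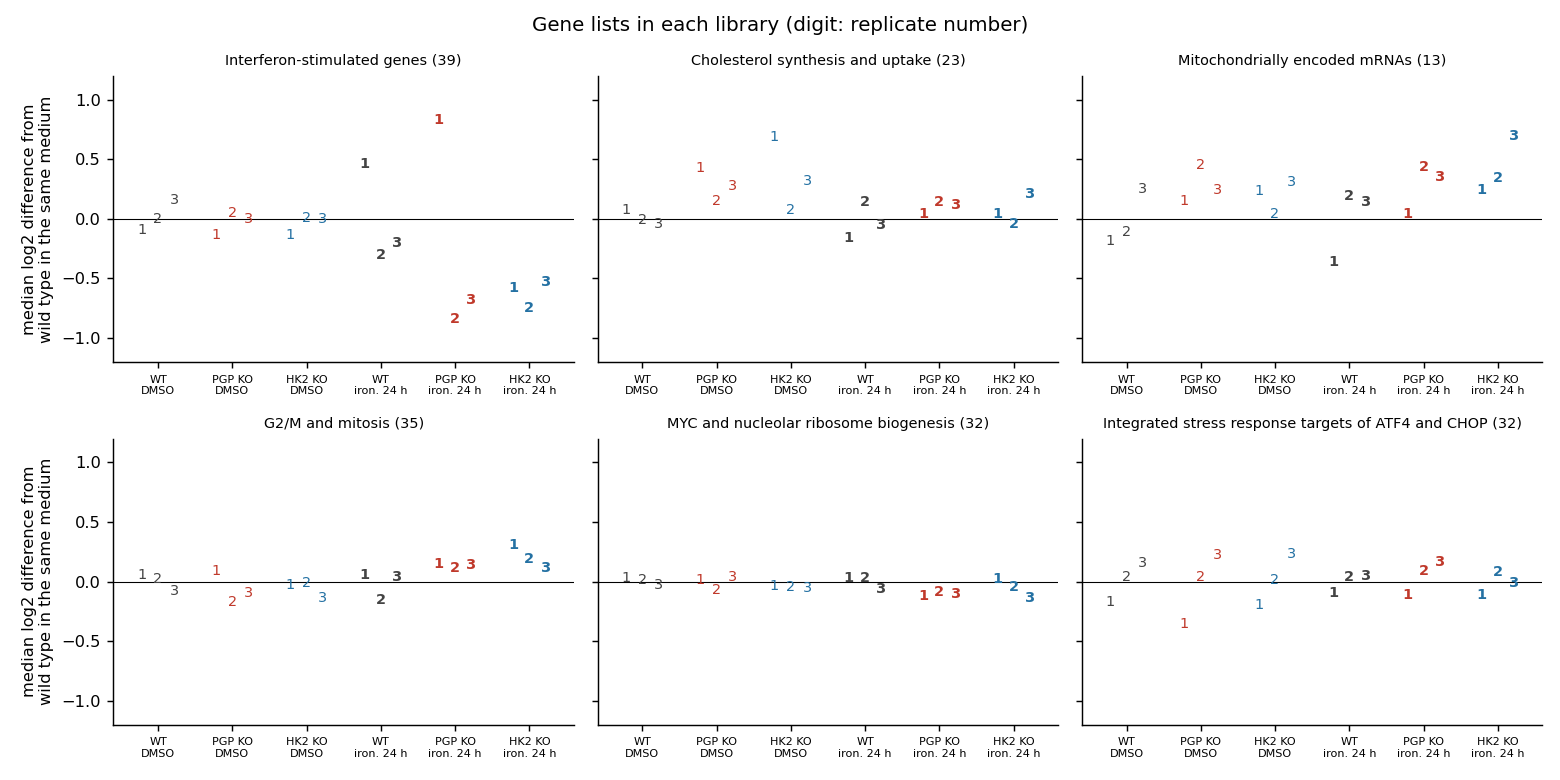
Median level of 6 gene lists in each library, as the log2 difference from the wild type mean in the same medium, on log2(CPM + 0.5). Digits are replicate numbers, in bold for 24 h of ironomycin (labelled iron.), and numbers in brackets are list members. For interferon-stimulated genes replicate 1 of the PGP knockout lies at 0.83 and replicates 2 and 3 at -0.84 and -0.68.

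The transcripts encoded in mitochondrial DNA, which supply core subunits of the respiratory chain, had the highest median of any list with at least 10 tested members, at 0.30. All 13 were higher in the knockout and 3 had an unadjusted p under 0.05. MT-CO1 was at 1238, 1491 and 1233 CPM in the knockout and 859, 1099 and 1029 CPM in wild type, a difference of 0.41 ± 0.14 that was not called. MT-CO2 was at 1426, 1996 and 1919 CPM in the knockout and 896, 1695 and 1664 CPM in wild type, and overlapped. Replicate 1 of wild type was the lowest library for this list, and without it the median was 0.12 and none of the 13 had an unadjusted p under 0.05. Without replicate 2 of the PGP knockout the median was 0.23, again with none at that threshold. In DMSO, with no library in common, the median was 0.29 and all 13 were higher. However, PGP knockout libraries with the same replicate number deviated together across the media, at correlations of 0.31, 0.20 and 0.32. The DMSO values may therefore not be independent of those under the drug. Nuclear genes for complex I and for complexes II to V had medians of -0.02 and -0.00 under the drug.

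Genes of mitosis and the G2 phase had a median difference of 0.14, with 32 of 35 higher and 1, CCNB1, at an unadjusted p under 0.05. Its median change in wild type under ironomycin was -1.61. CCNB1, cyclin B1, was at 32.3, 39.5 and 40.9 CPM in the knockout and 22.2, 32.3 and 29.9 CPM in wild type, against a mean of 130.7 CPM in wild type DMSO. The list's median level was 0.15, 0.11 and 0.14 in the knockout libraries and 0.05, -0.15 and 0.03 in wild type, relative to the wild type mean. With 1 library left out the median ranged from 0.088, with 26 of 35 higher, without replicate 2 of wild type, to 0.18 without replicate 3 of wild type. In DMSO the median difference was -0.09, and ranged from -0.14 without replicate 1 of the PGP knockout to -0.025 without its replicate 2. Genes of ribosome biogenesis in the nucleolus and other MYC targets had a median of -0.12, with 28 of 32 lower and 2 at an unadjusted p under 0.05. DDX21, a nucleolar helicase, differed by -0.22 ± 0.10, and PPAN, a factor of ribosome assembly, by -0.51 ± 0.24, and neither was called. Replication genes had a median of 0.01.

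Among the pathways that PGP acts beside, no gene was called. In the list of PGP with other metabolite repair enzymes, 4 of 16 tested members were higher and 12 lower, and PGP was the only 1 with an unadjusted p under 0.05. Glycolysis and lactate genes had a median of -0.03, with 8 of 24 higher, 16 lower and none at that threshold. TIGAR, a fructose bisphosphatase, differed by -0.64 ± 0.38, with 9.42, 5.11 and 9.55 CPM in the knockout and 10.7, 14.5 and 12.6 CPM in wild type. PFKFB3, which makes an activator of glycolysis, differed by -0.20 ± 0.22. Pentose phosphate pathway genes had a median of -0.08, with 2 of 11 higher, and glycerolipid synthesis genes of -0.02.

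Iron genes were read because ironomycin acts on iron. Of 15 tested genes of iron uptake, storage and regulation, 1 was higher and 2 lower at an unadjusted p under 0.05, and none was called. FBXL5, the iron-sensing part of a ubiquitin ligase, was at 32.9, 30.4 and 27.7 CPM in the knockout and 23.4, 21.6 and 21.2 CPM in wild type, a difference of 0.46 ± 0.15. SLC11A2, the metal transporter DMT1, was at 19.9, 17.9 and 18.5 CPM in the knockout and 27.7, 25 and 27.4 CPM in wild type, a difference of -0.51 ± 0.18. Neither gene's groups overlapped. TFRC, the transferrin receptor, was at 521, 445 and 632 CPM in the knockout and 462, 615 and 528 CPM in wild type. Iron-sulfur cluster genes had a median of 0.00 over 27 members. NCOA4, the receptor for ferritin breakdown, had 0 counts in every library of the series and was not tested. Whether its transcripts could be counted in these data was not tested, so the zeros give no level. MT1M, a metallothionein, had 0 counts in the knockout and 7, 4 and 1 counts in wild type. Taking 3 counts in the 3 knockout libraries together as the floor, the wild type level of MT1M was 3.78-fold above that floor. The 95% interval of the ratio of knockout to wild type ran from 0 to 0.381, so a smaller excess in wild type is also possible. The adjusted p of MT1M in edgeR was 0.588.

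Lysosomal genes had a median of -0.10, with 23 of 33 lower and 3 of these at an unadjusted p under 0.05, among them CTSB and GLA, both lysosomal hydrolases, at -0.27 ± 0.11 and -0.44 ± 0.18. The other 10 were higher, and HEXA, also a hydrolase, was the 1 of these at that threshold, at 0.29 ± 0.12. NRF2 targets of glutathione and quinone defence also had a median of -0.10, and NQO1, a quinone reductase, was at 81.7, 109 and 110 CPM in the knockout and 117, 135 and 127 CPM in wild type, a difference of -0.33 ± 0.16. MHC class II presentation genes had the lowest median, -0.26, with 10 of 13 lower and none at an unadjusted p under 0.05. Without replicate 3 of the PGP knockout that median was -0.06, and without replicate 1 of wild type it was -0.17. The HK2 knockout under ironomycin, against the same wild type libraries, had a median of -0.24 for these genes.

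Genes of the death pathway named in the series title had no called member. BAX was at 19.3, 24.6 and 17.7 CPM in the knockout and 19.1, 14.9 and 19.1 CPM in wild type, and BAK1 at 6.91, 14.4 and 14.4 CPM against 9.86, 11.1 and 12.8 CPM. These 2 genes encode the proteins that permeabilise the outer mitochondrial membrane. The 95% interval of the difference was -0.19 to 0.61 for BAX and -0.38 to 0.54 for BAK1. For their inhibitors BCL2 and MCL1 it was -0.21 to 0.30 and -0.33 to 0.33. The BCL2 family had a median of 0.05 over 15 members and p53 targets of -0.00 over 23, with none at an unadjusted p under 0.05.

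Myelomonocytic markers summed to between 2893 and 3108 CPM in wild type and between 2710 and 3120 CPM in the PGP knockout, and targets of the KMT2A fusion to between 2377 and 2540 CPM and between 2334 and 2512 CPM. Of 26 tested myelomonocytic markers, 14 were higher and 12 lower in the knockout, with differences from -1.12 to 0.96. At an unadjusted p under 0.05, 1 was higher and 3 were lower, where the shares of all genes were 2.35% and 1.71%. None of the 26 was called. Of 18 B-lymphoid markers, 3 passed the filter, and the list summed to between 12.6 and 22.6 CPM in wild type and between 12.3 and 21.4 CPM in the knockout. PAX5, EBF1 and IGLL1 passed, and CD79A and MS4A1 did not. PAX5, a B-lineage transcription factor, was at 10.5, 4.18 and 3.90 CPM in the knockout and 8.22, 4.76 and 4.08 CPM in wild type. IGLL1, part of the surrogate light chain, was at 4.19, 3.95 and 6.82 CPM in the knockout and 3.49, 2.78 and 2.33 CPM in wild type. EBF1, a B-lymphoid transcription factor, was at 2.93, 0.697 and 1.95 CPM in the knockout and 6.98, 3.77 and 4.86 CPM in wild type, and was not called (-1.45 ± 0.43). T-lymphoid and NK markers summed to between 108 and 124 CPM in wild type and between 107 and 139 CPM in the knockout, most of it CD4. Markers of epithelial cells and fibroblasts summed to at most 11.9 CPM in the 6 libraries. The 19 markers of erythroid cells and megakaryocytes summed to between 5.36 and 8.42 CPM in wild type and between 11.4 and 13.8 CPM in the knockout, without overlap. Of these, 12 had no count in any wild type library and 11 had none in any knockout library, and EPOR, the erythropoietin receptor, was the only 1 that passed the filter. The part of this small sum in the results above was not tested. In bulk RNA, fewer cells of a type and less RNA per cell cannot be told apart.

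The difference in response asks whether the change from DMSO to ironomycin was of another size in the knockout. No gene was called (0% of 11610 in edgeR and 0 in DESeq2), and 221 genes had an unadjusted p under 0.05. For CHI3L1 the difference in response was -0.81 ± 0.31, for CADM1 -0.61 ± 0.26, for IGF1 -0.49 ± 0.27, for PLAC8 0.56 ± 0.19, for FGL2 0.52 ± 0.39 and for ZNF85 1.30 ± 0.62. The genes were chosen by their difference under the drug, which is part of these values, so their signs and sizes are a description and support no difference in response.

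In DMSO, where the 6 libraries were others, the same genotype comparison gave no call (0% in edgeR and 0 in DESeq2), and 648 had an unadjusted p under 0.05. The 6 genes called under ironomycin had DMSO differences of the same sign: -0.69 ± 0.22 for CHI3L1, -0.40 ± 0.20 for CADM1, -0.57 ± 0.19 for IGF1, 0.30 ± 0.13 for PLAC8, 1.02 ± 0.28 for FGL2 and 1.40 ± 0.36 for ZNF85. Each was smaller in size than under the drug. The genes were chosen by their difference under the drug, which favours larger values there, so this order is a description only. Across 9250 genes of at least 5 CPM the DMSO and ironomycin differences had a Pearson correlation of 0.21 and a Spearman correlation of 0.30. These are descriptions across genes, which are not independent, and both differences come from the same cell lines. PGP knockout libraries with the same replicate number also deviated together across the media. Cholesterol genes had a DMSO median of 0.25, with 20 of 23 higher in the knockout and 9 of them at an unadjusted p under 0.05 (3.04% of all genes), and none was called. That 9 was 5 without replicate 2 or 3 of wild type or replicate 1 or 3 of the knockout, and without replicate 2 of wild type 1 member was lower at that threshold. SQLE, squalene epoxidase, had the smallest p of that list and was chosen for it. It was at 106, 73.3 and 71.8 CPM in the knockout and 61.8, 57.2 and 57.1 CPM in wild type in DMSO.

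The HK2 knockout, treated alike, shows which differences were also found without loss of PGP as the target. Between the PGP and HK2 knockouts under ironomycin, 1 of 11610 genes was called (0.00861%). This was TKTL1, which encodes a transketolase-like protein, higher in the PGP knockout by 3.31 ± 0.55 (adjusted p = 0.0492 in edgeR). Its levels were 7.75, 6.28 and 3.51 CPM in the PGP knockout, 0.712, 0.624 and 0.383 CPM in the HK2 knockout and 1.23, 3.77 and 2.92 CPM in wild type. The call was lost in 5 of the 6 fits that left out a library.

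Of the 6 genes called against wild type, CHI3L1, CADM1, PLAC8 and FGL2 had overlapping levels in the PGP and HK2 knockouts, and IGF1 and ZNF85 did not. CHI3L1 was at 240, 284 and 366 CPM in the HK2 knockout, CADM1 at 59.1, 65.1 and 63.3 CPM, PLAC8 at 103, 88.0 and 93.6 CPM and FGL2 at 32.0, 23.1 and 23.0 CPM. The differences between the knockouts, PGP minus HK2, were 0.09 for CHI3L1 (95% interval -0.36 to 0.54), -0.16 for CADM1 (-0.50 to 0.18), 0.07 for PLAC8 (-0.21 to 0.35) and -0.01 for FGL2 (-0.53 to 0.51). IGF1 was at 15.4, 15.6 and 16.3 CPM in the HK2 knockout, a difference of -0.34 (-0.74 to 0.07). ZNF85 was higher in the PGP knockout by 1.35 (0.50 to 2.19), with 8, 3 and 4 counts in the HK2 libraries, and was not called. Against the same wild type libraries, the HK2 knockout gave -1.60 for CHI3L1, -0.85 for CADM1, -0.73 for IGF1, 0.79 for PLAC8, 1.54 for FGL2 and 1.36 for ZNF85. The HK2 comparison called 8 genes (0.0689%). These values share the wild type libraries with the comparison above, so they stand side by side and are no second test. Between the knockouts, PGP minus HK2, the PGP transcript differed by -0.44 ± 0.12 and the HK2 transcript by 1.01 ± 0.29, and neither was called.

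In the fit without a block, all 39 interferon-stimulated genes were higher in the PGP than in the HK2 knockout, with a median of 0.66. Of these, 13 had an unadjusted p under 0.05, where 2.5% of all genes were higher and 1.46% lower. With the replicate number in the fit as a block, the median was 0.51, with 37 of 39 higher and 13 at that threshold. None was called. The HK2 libraries were at -0.58, -0.75 and -0.53 relative to wild type, close to replicates 2 and 3 of the PGP knockout. Without replicate 1 of the PGP knockout the median between the knockouts was -0.12, with 12 of 39 higher and 2 at that threshold. With another library left out between 5 and 24 of the 39 were higher at that threshold. Against wild type under ironomycin, the HK2 knockout had medians of 0.42 for mitochondrially encoded transcripts and 0.25 for mitosis genes. Between the knockouts these lists had medians of -0.09 and -0.08. For the mitochondrial transcripts the median was 0.016 without replicate 3 of the HK2 knockout and as low as -0.20 with another library left out, so its sign rested on that replicate.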

How the data were processed

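The authors deposited 1 table of unnormalised counts by Ensembl gene, with 54042 genes in 21 libraries, of which 51661 matched a symbol. Per the labels' protocols, RNA was isolated with Qiagen RNeasy and libraries made with the Lexogen QuantSeq 3' kit. Per the submitters' processing notes, bcl2fastq 2.20.0.422, HISAT2 and HTSeq were used with hg19. The strand setting is not given in the sources used here, so overlapping and antisense genes are uncertain.

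Counts were tested in edgeR 4.0.16 (limma 3.58.1, R 4.3.3): TMM normalisation, removal of low genes by filterByExpr with the groups (at least 10 counts, 15 in total), then a single quasi-likelihood model in which each group of the 21 libraries had its own mean (biological coefficient of variation 0.149). Comparisons were the PGP knockout against wild type and against the HK2 knockout under ironomycin, the same genotypes in DMSO, and the response difference. Total counts were 3829274 to 6069264. Floors and intervals of counts cover counting error only. Named genes were PGP, PDXP and HK2, the 12 largest rises and 12 largest falls among called genes of at least 5 CPM without overlap, filled by smallest p, fixed markers, and up to 4 called members or the 2 of smallest p in each list described. ZNF85, which is below 5 CPM, and HEXA, IFIT1, SQLE and the named pseudogenes other than RPL12P47 fell outside that rule. Members and lists were chosen with earlier results of these data known.

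Settings varied were RLE size factors, DESeq2 1.42.0, no filter, a replicate block, the compared groups alone, and each library left out. The labels do not say what replicate numbers mark. After subtracting group means, libraries with the same number correlated at 0.157, -0.020 and 0.050 between the treated PGP knockout and wild type, so these were not paired. Between the treated PGP and HK2 knockouts they correlated at 0.104, 0.351 and 0.213, each over 0.1. The numbers were therefore taken to pair those libraries, on the data alone. This pairing is loose, since replicate 1 of the PGP knockout correlated at 0.095 with replicate 3 of the HK2 knockout. Unless a block is named, the values given come from the fit without a block, also those against the HK2 knockout. In DMSO, PGP knockout and wild type libraries with the same number correlated at 0.098, 0.107 and 0.153. Between the PGP knockout under ironomycin and in DMSO the values were 0.313, 0.202 and 0.320. The DMSO comparison, the response difference and the mean over both media were nevertheless fitted without a block, which was tried as a setting. The procedure was tested on simulated data. No libraries were duplicates (chi-square per degree of freedom at least 3.68). Figures used matplotlib 3.10.9, Python 3.11.15, pandas 2.3.3 and numpy 2.4.6.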

Additional observations from a re-analysis of the deposited data

How the results depend on the processing

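Without the low-count filter, 48 genes were called in the treated comparison (45 of them tested with the filter, the 6 reported included), 18 for the difference in response, 49 against the HK2 knockout and 96 in DMSO, and the cause was not tested. In fits of the compared groups alone the counts were 3, 1, 0 and 2, with CHI3L1, CADM1 and the pseudogene RPSAP15 called in the treated comparison, and the cause was not tested. RLE size factors gave the reported counts, and DESeq2 gave 5, without ZNF85, in the treated comparison and 0, 1 and 0 in the others. With the replicate number as a block, 11 genes were called in the treated comparison, the 6 reported among them and TGM5, CCL2, CLU, COL6A1 and EMP2 beside them. There the numbers did not pair the libraries, and not every library correlated best with its own number. The block left the number called unchanged for the difference in response, in DMSO and against the HK2 knockout, whose pairs deviated together. In DMSO the number with an unadjusted p under 0.05 was 883 with the block and 648 without it. With 1 library left out the counts ranged from 0 to 4 in the treated comparison and from 0 to 1 against the HK2 knockout, and were 0 for the difference in response and in DMSO in every such fit, where a group of 2 is assumed to vary like the others.

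Of the values for single genes in the treated comparison under each setting, 659 kept their direction and their side of the threshold, 29 lost the call, 11 gained it and 15 changed sign. Every change of sign was in a fit without 1 library and in a gene that was not called. The ranges over these fits were -0.093 to 0.345 for BAK1, -0.054 to 0.057 for PGD, -0.100 to 0.193 for MSMO1, -0.145 to 0.107 for TFRC, -0.026 to 0.104 for BCL2, -0.087 to 0.080 for MCL1 and -0.0020 to 0.144 for DDIT3. Depth limits the low genes: 3 counts were 0.583 to 0.697 CPM.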

Other observations

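A comparison of the PGP knockout with wild type over both media, the mean of the DMSO and ironomycin differences, was added after the data were seen. It called 21 of 11610 genes (0.181%) in edgeR, 13 higher and 8 lower in the knockout, and it uses the treated libraries described above. PGP knockout libraries with the same replicate number deviated together across the media (correlations 0.313, 0.202 and 0.320). The fit took them as independent, so the SE of this mean may be too small and the calls too many. CHI3L1 (-1.10), IGF1 (-0.82), CADM1 (-0.71) and CCL2 (-2.45) were lower, and PLAC8 (0.58), FGL2 (1.27), ZNF85 (2.06), CLU (1.21), MCOLN2 (1.06) and TGM5 (0.64) were higher, as log2 differences. These genes were already chosen by their difference under ironomycin, which is part of this mean, so their values are a description and no second test. Other called genes are not listed here. With 1 library left out the number called ranged from 7, without replicate 3 of wild type in DMSO, to 35, without replicate 2 of wild type in DMSO. DESeq2 called 41, the replicate block 55, and the fit without the low-count filter 166.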
